A study of Mus musculus with 6 samples.

Results

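Long intergenic non-coding RNAs (lincRNAs) are transcripts without a recognised protein product whose genes lie between protein coding genes. They were read here from a table of normalised read counts of mouse hearts, as the rows given the biotype lincRNA whose mean over the 6 hearts was at least 20, leaving out the imprinted transcripts *H19* and *Meg3*. This rule gave 146 members of the 1035 lincRNA rows and of the 21776 rows of the table. The members were thus chosen on their mean level over both groups, so levels are given as a description and only the comparison between groups was tested.

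The study compared hearts of 3 mice homozygous for a *Trdn-as* knockout (KO) with hearts of 3 wild-type (WT) mice. *Trdn-as* is an antisense non-coding RNA of *Trdn*, which encodes triadin of the calcium release complex in heart muscle. In the KO allele, a polyadenylation signal was inserted by Cas9 into the first exon of *Trdn-as* in embryonic stem cells. The allele is carried by every cell of the animal, chimeras were backcrossed to C57BL/6, and the number of founder clones and the age of the hearts sequenced are not given in the sources used here. The whole heart was the tissue, total RNA was sequenced with strand information and single-end reads, and no treatment of the mice is given.

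The deposited values of a heart summed to between 3.13 and 3.25 M, and the number of counted reads, inferred from which whole numbers the rounding left out, lay between 2.59 M in WT replicate 1 and 3.62 M in KO replicate 1. At that depth, 3 reads correspond to a value of 2.61 to 3.77, and the lowest value of any member in any heart was 6. The library labels held for the targeted gene: *Trdn-as*, listed under the clone name AC157017.2, was at 1, 0 and 1 in the KO hearts and at 690, 773 and 688 in the WT hearts. The heart muscle marker genes were high in all 6 hearts (summed level 17336 to 18525 in KO and 18142 to 22063 in WT). The unadjusted p was under 0.05 for 3 of the 5, all with a lower KO mean, against 5.74% of all genes tested. Of these markers, *Myh6* and *Actc1* had means of 0.821 and 0.805 estimated reads per exonic base, with the lowest values in WT replicate 1 (0.785 and 0.783). How far the removal of duplicate reads shapes the levels of such dense genes was not tested. The summed level of 8 immediate early genes was 563 to 614 in KO and 441 to 531 in WT with no overlap, whereas the summed levels of endothelial, fibroblast, smooth muscle, leukocyte, blood, atrial and fat markers overlapped between the groups. The part of these differences in the lincRNA values was not tested, and in whole hearts fewer cells of a type and less RNA per cell cannot be told apart.

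lincRNAs act in several ways. *Malat1* and *Neat1* stay in the nucleus, where *Malat1* gathers in nuclear speckles and *Neat1* is the scaffold of paraspeckles. Others bind a protein or a microRNA in the cytoplasm, some serve mainly as precursors from which small nucleolar RNAs (snoRNAs) or microRNAs are cut, and for some the act of transcription matters for a neighbouring gene. In heart and vessels, *Bvht* (Braveheart) and *Carmn* are known from the commitment of cardiovascular precursors and from smooth muscle.

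The sequence carries the known function in a few members. *1700020I14Rik*, which RefSeq names *Oip5os1* and which is known as Cyrano, holds a site that pairs with microRNA miR-7 over nearly its whole length and is known to direct the decay of that microRNA. The site lies in exon 3 of 3 of the transcript, at chr2:119602137-119602161 on the plus strand of GRCm38. It is shown with the microRNA, from RefSeq, to make the pairing visible: capitals mark, in the site, the blocks of 13 and 8 bases complementary to the microRNA, which are separated by 4 unpaired bases, and, in the microRNA, the seed.
1700020I14Rik site: ACAACAAAATCACcaatGTCTTCCA
mmu-miR-7a-5p: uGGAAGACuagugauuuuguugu
Of 5854 lincRNA genes of GENCODE M21, 1 held a site of this length in its longest transcript, this one. *2900097C17Rik*, which RefSeq names *Norad*, is known to bind the Pumilio proteins, repressors of messenger RNAs. Its single exon held 11 copies of the Pumilio element TGTANATA on the transcribed strand, none overlapping another, and no other lincRNA gene of the annotation held as many (the next had 9). The following 4, shown with 6 bases on each side and the element in capitals, lie on the minus strand at chr2:156392322-156392329, chr2:156391826-156391833, chr2:156391637-156391644 and chr2:156390219-156390226.
2900097C17Rik element 1: gtcctgTGTATATAatatga
2900097C17Rik element 2: acatgcTGTAAATAcctttt
2900097C17Rik element 3: tttcttTGTACATAgtgtat
2900097C17Rik element 10: ctactaTGTATATAggggac
At least 1 such element was present in 46 of the 146 members (31.5%) and in 13.9% of all lincRNA genes of the annotation, and transcript length, which raises the number of chance matches, was not taken into account.

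Of the members, 7 span 1 or more microRNA genes, from which 22 mature microRNAs of the RefSeq table are cut. *Mir17hg* is the host of the miR-17-92 cluster, known from cell proliferation and heart growth. Its mature microRNAs fall into few seed families, as the capitals (bases 2 to 8, the seed) show for those of the dominant arms: miR-17 and miR-20a share one seed and both miR-19 forms another, whereas miR-18a and miR-92a each have their own.
mmu-miR-17-5p: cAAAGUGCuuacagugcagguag
mmu-miR-20a-5p: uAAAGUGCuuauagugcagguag
mmu-miR-18a-5p: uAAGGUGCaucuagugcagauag
mmu-miR-19a-3p: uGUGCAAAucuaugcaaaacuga
mmu-miR-19b-3p: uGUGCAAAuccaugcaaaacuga
mmu-miR-92a-3p: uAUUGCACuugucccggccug
*6720427I07Rik* spans let-7d and *E130102H24Rik* spans miR-101a. The mature sequences are shown because of these hosts, with the seeds in capitals, and are cut from the host transcripts' strand.
mmu-let-7d-5p: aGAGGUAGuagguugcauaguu
mmu-miR-101a-3p: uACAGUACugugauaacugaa
The libraries measured the host transcripts and not the mature microRNAs.

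The biotype of the table was compared with 2 annotations. All 146 identifiers were found in GENCODE M21, which calls 137 of them lincRNA, and 109 have the same coordinates there as in the table. RefSeq (GRCm38.p6) matched 92 members, of which 82 are non-coding RNAs, 7 are protein coding and 3 are pseudogenes. The 7 that RefSeq calls coding include *Lsmem2*, a small membrane protein gene of striated muscle, and *Gm37494*, the member of the fifth highest mean. Of the members, 25 overlap the span of a protein coding gene, 14 on the opposite strand and 11 on the same strand, so "intergenic" does not hold for these by position. The median member had 3106.5 exonic bases and 3 exons, with a range of 369 to 20771 bases, and 21 members had a single exon.

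The lincRNA signal of the heart was held by few transcripts. *Malat1* alone took 20.9% of the summed mean of the members, and *Malat1*, *Neat1*, *1700020I14Rik* and *Gm26917* together took 55.4%. These 4 were the members with a mean over 1000. The median member had a mean of 49.5, and 36 members were above 100. The 146 members held 86.8% of all deposited lincRNA reads. Those just inside the rule were *6430710C18Rik* and *Gm36670*, both with a mean of 20, and *Snhg18* with 20.2. Just outside it were *Gm28875* with 19.7 and 5 rows that share a mean of 19.3.

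**Figure D1:**
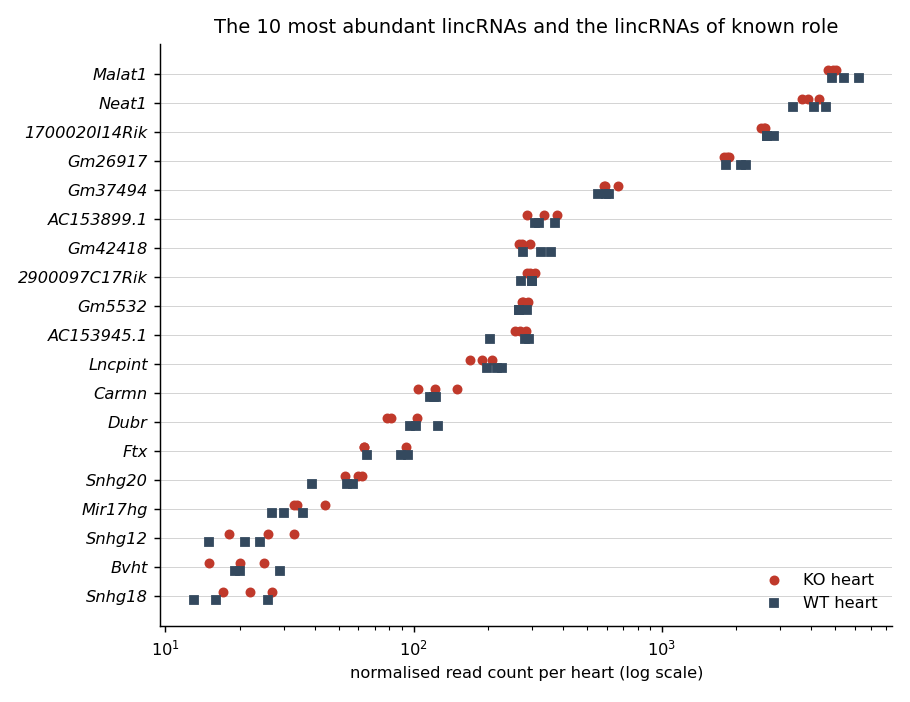
Normalised read counts (log axis) in each KO heart (circles) and each WT heart (squares) for the 10 members of highest mean and the members of known role. The 4 highest members lie above 1000 in every heart, and the groups overlap for all members shown except *1700020I14Rik*, where the KO hearts reach 2618 and the WT hearts begin at 2651.

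*Malat1* was at 4677, 4912 and 5046 in KO replicates 1 to 3 and at 6248, 5450 and 4847 in WT replicates 1 to 3. *Neat1* was at 4300, 3677 and 3872 in KO and at 4113, 4580 and 3397 in WT. *1700020I14Rik* was at 2618, 2507 and 2584 in KO and at 2844, 2666 and 2651 in WT. *Malat1* was thus highest in WT replicate 1 with WT replicate 3 among the KO hearts, *Neat1* overlapped fully, and *1700020I14Rik* was lower in every KO heart than in any WT heart by a small step. The log2 fold change of *1700020I14Rik* was -0.08, and 0.00 (0.0041) after the correction for read density described below. *Gm26917*, the fourth, was at 1782, 1872 and 1836 in KO and at 2196, 2089 and 1808 in WT. It lies with *Gm42418* (265, 296 and 274 in KO and 358, 327 and 277 in WT) on chromosome 17 in a copy of the ribosomal RNA genes, and RefSeq lists *Gm42418* as the 18S-related pseudogene *Rn18s-rs5*. Since ribosomal and multi-mapping reads were removed upstream, the level of both is uncertain.

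Among the next members, *Gm37494* had a mean of 616 ± 45.1 in KO and 586 ± 30.2 in WT (SD, n = 3 each). *AC153899.1*, a single-exon transcript on chromosome 10, was at 379, 287 and 335 in KO and at 309, 319 and 371 in WT. *2900097C17Rik* (*Norad*) varied least of those named so far after *1700020I14Rik* and *Gm5532*, with values of 295, 287 and 309 in KO and 301, 271 and 300 in WT. *Gm5532* was at 273, 276 and 289 in KO and at 287, 266 and 265 in WT, and *AC153945.1* at 269, 256 and 285 in KO and 291, 282 and 204 in WT. In *AC153945.1* WT replicate 3 was the lowest heart, and without it the log2 fold change turned from 0.08 to -0.09.

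Per exonic kilobase, which allows levels of different genes to be compared, the order changed. *Malat1* stayed first at 744 per kb, followed by *Gm26917* (580), *1700020I14Rik* (318), *AC153945.1* (212) and *Neat1* (192), whose 20771 exonic bases had placed it second by count. In all, 9 members were above 100 per kb. The median was 22.5 per kb in the members and 31.6 per kb in the 11015 protein coding genes with a mean of at least 20, so the median lincRNA of this choice was somewhat less dense than the median coding gene that passed the same minimum. *Malat1* was denser than 99.96% of those coding genes.

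The density of *Malat1* was not far below the most the processing can show. With single-end reads, removal of duplicates leaves about 1 read for each start position and strand. Estimated reads per exonic base of *Malat1* were 0.770, 0.744 and 0.727 in KO and 0.711, 0.745 and 0.766 in WT, and the heavy chain gene *Myh6* of the heart muscle, at a mean of 0.821, was at a similar density. In estimated reads, *Malat1* was therefore lowest in WT replicate 1, whereas in normalised counts it was highest there, in the library with the smallest size factor (0.795). *Gm26917* had 0.525 to 0.615 reads per exonic base, and the other dense members had between 0.0823 and 0.362. The share of *Malat1* in the members, its level per kb and its fold change all come from values after removal of duplicates, and how far that lowers them was not tested.

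The comparison of KO with WT asked whether loss of *Trdn-as* transcription moved other long non-coding RNAs of the heart. Across all 13753 genes tested, 4 passed an adjusted p of 0.05 (0.0291%), and none was a member. The 4 were *Trdn-as*, *Trdn*, the pseudogene *AC109214.2* within the span of *Trdn*, and *H19*, which has the biotype lincRNA and a mean of 117 and is no member only because the rule leaves it out. *H19* was at 139, 189 and 131 in KO and at 72, 78 and 94 in WT, a log2 fold change of 0.89 ± 0.14 (SE; adjusted p = 0.0117). The smallest adjusted p of a member was 0.762 (limma). Of the 146 members, 13 had an unadjusted p under 0.05 (8.90%), against 5.74% of all genes tested, and limma-voom likewise gave 0 members at the adjusted threshold. Of the 136 members with a mean of at least 20 in both groups, 10 had an unadjusted p under 0.05. Of the 13, 4 were higher in KO (2.74% of members, 2.94% of all genes) and 9 lower (6.16% of members, 2.80% of all genes). With limma-voom, with scaling to the total and without the mean-variance trend, 9 members each (6.16%) had an unadjusted p under 0.05. The share over all genes tested in these fits was 6.035%, 5.99% and 5.67% in the same order, near that of the members. In each of these fits 4 members were higher and 5 lower, and without the trend only 4 of the original 13 were among the 9. Lower members stayed the more numerous in the other fits to all hearts. They were 9 against 4 higher with median-of-ratios scaling, the other pseudocount and the read density correction. They were 10 against 3 with at least 10 in every heart, 11 against 4 without a minimum mean and 11 against 5 with a replicate block. In these fits 5.29% to 5.82% of all genes had an unadjusted p under 0.05. The groups did not overlap for 11 members (7.53%), against 9.07% of all genes. The number with an unadjusted p under 0.05 turned on single hearts: leaving out KO replicate 1 gave 23, leaving out WT replicate 3 gave 20, and leaving out KO replicate 3 gave 7, as did leaving out WT replicate 2. The share over all genes tested moved in the same direction in these fits, to 8.26%, 8.60%, 3.75% and 4.70% in the same order. With 23 and with 20 of the 146, the share of the members was above that of all genes, which is a description with no test.

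The members did not move as a group. The median log2 fold change was 0.0091 over the members and 0.0016 over all genes, with 76 members above 0 and 70 below. Between the 5th and the 95th percentile, members lay between -0.35 and 0.36 on the log2 scale, and all genes between -0.28 and 0.32. The 95% interval lay within a 1.5-fold change in either direction for 86 members and within 2-fold for 139. For the other 7 the interval reached beyond 2-fold, as in *AC160401.1* (0.42 to 2.20 on the log2 scale), *Gm16386* (0.09 to 1.37) and *Gm28187* (-0.13 to 1.39), the last of which also holds 0. The members took 0.773% ± 0.0186 of all deposited reads in KO and 0.796% ± 0.0230 in WT (SD, n = 3 each), a difference with an exact two-sided permutation p of 0.3, where 0.1 is the smallest that 3 against 3 allows. The difference of -0.0234 percentage points was -0.0062 without *Malat1* (0.618% in KO and 0.624% in WT; exact permutation p = 0.9), and with a heart left out it lay between -0.037 (without WT replicate 3) and -0.013 (without KO replicate 2).

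**Figure D2:**
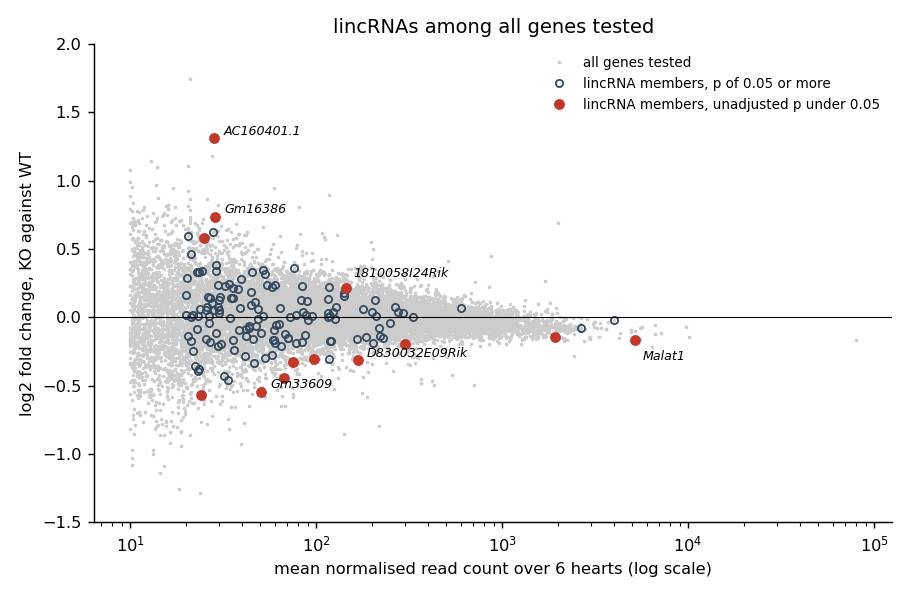
Log2 fold change of KO against WT against the mean normalised read count (log axis) for all genes tested (grey) and for the members, filled where the unadjusted p was under 0.05. Members lie within the cloud of all genes at their level, with *AC160401.1* at 1.31 the highest of them, and *Trdn-as*, the 1 gene beyond 2 in either direction, lies outside the axis.

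The 3 members that had both an unadjusted p under 0.05 and no overlap were *D830032E09Rik*, *Gm33609* and *1810058I24Rik*. *D830032E09Rik*, a spliced transcript on chromosome 1 (chr1:107917259-108028337) with no known role here, was at 165, 131 and 152 in KO and at 187, 173 and 197 in WT, a log2 fold change of -0.32 ± 0.10 (SE; adjusted p = 0.762). It was the 1 member whose unadjusted p stayed under 0.05 in every alternative. *Gm33609*, on chromosome 5, was at 43, 38 and 40 in KO and at 79, 60 and 44 in WT, a log2 fold change of -0.55 ± 0.19 (SE; adjusted p = 0.807). Its WT hearts differed among themselves by more than the group means did, with WT replicate 1 highest, and without that heart the log2 fold change was -0.34 and the unadjusted p no longer under 0.05. *1810058I24Rik*, a spliced transcript that RefSeq lists as protein coding, was at 162, 151 and 152 in KO and at 141, 132 and 127 in WT. Its log2 fold change was 0.22 ± 0.10 (SE, adjusted p = 0.851). The unadjusted p was no longer under 0.05 in 4 of the 15 alternatives and stayed under it in 2 of the 6 fits with a heart left out.

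The other 10 members with an unadjusted p under 0.05 had overlapping groups. *AC160401.1* had the largest fold change of all members, 1.31 ± 0.43 (SE, log2 scale; adjusted p = 0.762), and also the largest spread: its values were 18, 41 and 61 in KO and 30, 14 and 6 in WT. *Gm16386* (33, 26 and 47 in KO and 11, 31 and 24 in WT) and *2610035D17Rik* (23, 36 and 31 in KO and 20, 23 and 16 in WT) were the others with a higher KO mean and overlap, at log2 fold changes of 0.73 and 0.58. The mean over all hearts chose the members, and in 10 of them the mean of 1 group was under 20, so that these reached the minimum through the other group. Among the 13 they are *AC160401.1*, *2610035D17Rik* and *AC158630.2*, whose differences the choice favours. With a heart left out, *AC160401.1* lay between 0.77 (without WT replicate 3) and 1.84 (without WT replicate 1), *Gm16386* between 0.32 (without WT replicate 1) and 1.03 (without WT replicate 2), and *2610035D17Rik* between 0.44 (without KO replicate 2) and 0.75 (without KO replicate 1). Among those with a lower KO mean, *Gm12295* was at 61, 56 and 51 in KO and at 55, 87 and 93 in WT, so the difference rested on WT replicates 2 and 3. *Dubr*, a transcript known from muscle precursor cells and neurons, was at 78, 103 and 81 in KO and at 126, 102 and 97 in WT. *1110019D14Rik* (76, 56 and 67 in KO and 87, 71 and 92 in WT) and *AC158630.2* (27, 16 and 15 in KO and 36, 26 and 24 in WT) likewise had 1 KO heart among the WT hearts. With a heart left out, *Gm12295* reached from -0.68 (without WT replicate 1) to -0.30 (without WT replicate 3), *Dubr* came to -0.20 without WT replicate 1, *1110019D14Rik* to -0.21 without KO replicate 2 and *AC158630.2* to -0.40 without WT replicate 1, and at the smaller value none of the 4 had an unadjusted p under 0.05.

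**Figure D3:**
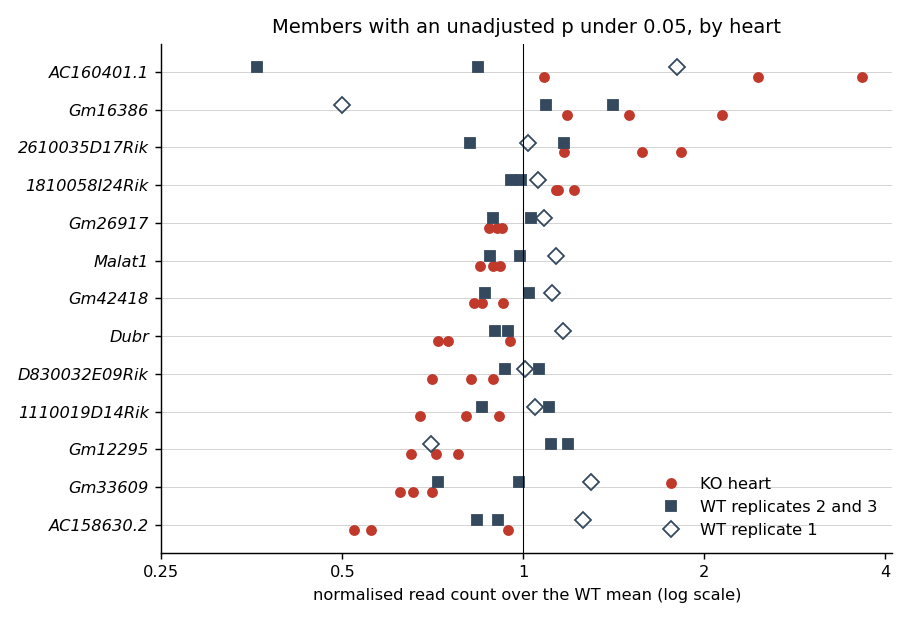
Normalised read count of each heart over the WT mean (log axis) for the 13 members with an unadjusted p under 0.05, ordered by fold change, with KO hearts as circles, WT replicates 2 and 3 as squares and WT replicate 1 as open diamonds. WT replicate 1 is the highest heart for 6 of the 9 members with a lower KO mean, and the groups are apart for *D830032E09Rik*, *Gm33609* and *1810058I24Rik*.

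Of the 9 members lower in KO, 6 had their highest value in WT replicate 1, the library with the fewest estimated reads. A gene chosen for a lower KO mean nearly always has its highest value in a WT heart, and among all 385 genes with an unadjusted p under 0.05 and a lower KO mean, that heart was the highest for 51.2%, so the 6 of 9 are read as near that share. *Malat1*, *Gm26917* and *Gm42418*, the 3 of the 13 that were above 100 per kb, were among the 6. Their log2 fold changes were -0.17, -0.15 and -0.20 (adjusted p = 0.851 for each). After a correction that removes any difference shared by genes of like read density, whatever its cause, they were -0.04, -0.03 and -0.15 and none had an unadjusted p under 0.05, whereas *D830032E09Rik* (-0.32) and *Gm33609* (-0.57) kept their size. Without WT replicate 1 they were -0.08 for *Malat1*, -0.09 for *Gm26917* and -0.11 for *Gm42418*, again with no unadjusted p under 0.05.

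The nuclear retained members were also set beside the proteins they work with. *Neat1* had a log2 fold change of -0.02 with a 95% interval of -0.19 to 0.15, which leaves no room for a change of 1.5-fold. Of the 14 listed paraspeckle and nuclear speckle proteins, 0 had an unadjusted p under 0.05, with log2 fold changes of -0.08 to 0.06 and a median of 0.00 (-0.0009). *Sfpq*, an RNA-binding protein needed to build paraspeckles, was at 679, 638 and 680 in KO and at 667, 690 and 712 in WT. *Srrm2*, a main protein of nuclear speckles, was at 2407, 2356 and 2321 in KO and at 2671, 2478 and 2304 in WT. The groups overlapped for both. *Srsf1*, a splicing factor of speckles, had a log2 fold change of 0.06. The list reached an unadjusted p under 0.05 for 1 gene in the fit without WT replicate 3.

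snoRNA host transcripts are spliced non-coding RNAs whose introns release snoRNAs, and whose spliced remainder is commonly degraded by nonsense-mediated decay. Of 24 listed hosts, 20 are rows of the table and 3 are members, since most of the others, such as *Gas5* and *Snhg1*, carry another biotype. *Snhg12* was at 26, 18 and 33 in KO and at 24, 21 and 15 in WT, *Snhg18* at 17, 27 and 22 in KO and at 13, 26 and 16 in WT, and *Snhg20* at 60, 53 and 62 in KO and at 54, 57 and 39 in WT. All 3 had a higher mean in KO and overlapping groups, with log2 fold changes of 0.33, 0.28 and 0.23 and adjusted p of 0.905 or more. *Snhg18* reached the minimum of 20 only through KO, with a mean of 22 against 18.3 in WT, so the choice favours its higher KO mean. *Gas5*, which is no member, had a log2 fold change of 0.16 and *Snhg1* one of -0.15 (adjusted p = 0.944 and 0.961).

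Of the 11 proteins that bind or mature snoRNAs, 1 had an unadjusted p under 0.05, against 5.74% of all genes tested, which is near that share in a list of this size. The 1 was *Nop56*, a core protein of box C/D particles, at 125, 103 and 93 in KO and 80, 87 and 72 in WT, with a log2 fold change of 0.41 ± 0.13 (SE; adjusted p = 0.762) and no overlap. *Nop58*, its partner, was at 252, 226 and 208 in KO and at 231, 226 and 223 in WT. *Fbl*, the methyltransferase of these particles, was at 35, 30 and 38 in KO and at 38, 37 and 38 in WT. The median over the list was 0.02, and the list held 2 such genes without KO replicate 2. *Snu13* and *Nolc1*, next by p, had log2 fold changes of -0.32 and 0.17, with overlap.

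Nonsense-mediated decay factors gave 1 of 14 genes with an unadjusted p under 0.05, likewise near the 5.74% of all genes. *Smg8*, a regulator of the kinase Smg1, was at 68, 78 and 71 in KO and at 53, 58 and 62 in WT, with a log2 fold change of 0.32 ± 0.14 (SE; adjusted p = 0.851) and no overlap. The count was 0 without KO replicate 3 and 0 without WT replicate 1. The central helicase *Upf1* was at 485, 443 and 465 in KO and at 477, 462 and 422 in WT, and the kinase *Smg1* at 1655, 1679 and 1575 in KO and 1656, 1645 and 1640 in WT, both with overlap. *Casc3*, a component of the exon junction complex, had a log2 fold change of 0.20 ± 0.09 (SE; adjusted p = 0.851), and the median over the list was 0.05.

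Host genes of microRNAs were at low to moderate levels. *Mir17hg* was at 44, 34 and 33 in KO and at 30, 27 and 36 in WT, a log2 fold change of 0.25 with a 95% interval of -0.18 to 0.67, so the host of the seed families shown above did not differ beyond the spread. *6720427I07Rik*, which spans let-7d, was at 215, 199 and 195 in KO and at 185, 218 and 192 in WT. *E130102H24Rik*, which spans miR-101a, was at 43, 32 and 29 in KO and at 35, 37 and 31 in WT. *Gm37233*, which spans miR-5103, was at 54, 54 and 59 in KO and at 60, 65 and 63 in WT, a log2 fold change of -0.17 ± 0.15 (SE; adjusted p = 0.921). It was the 1 host of the 7 whose groups did not overlap, where 9.07% of all genes tested had no overlap. The others are *2900076A07Rik*, at 30, 25 and 31 in KO and at 25, 24 and 31 in WT, and *Snhg20* and *Ftx*, given with the snoRNA hosts and the X chromosome.

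*Lncpint*, a p53-induced transcript, was at 207, 169 and 188 in KO and at 197, 217 and 227 in WT, with a log2 fold change of -0.19 ± 0.09 (SE; adjusted p = 0.851) and overlap. *Carmn*, known from smooth muscle, was at 149, 122 and 104 in KO and at 117, 123 and 121 in WT. *Bvht* was near the lower limit of the choice, at 25, 20 and 15 in KO and at 29, 20 and 19 in WT. The groups of *Carmn* and *Bvht* overlapped, and the 95% interval was -0.22 to 0.30 on the log2 scale for *Carmn* and -0.73 to 0.38 for *Bvht*. For *Bvht*, at its low level, that interval still holds a fall of more than 1.5-fold. *Norad* had a log2 fold change of 0.03 (95% interval -0.13 to 0.19) and Cyrano, *1700020I14Rik*, one of -0.08 (-0.19 to 0.03). With the read density correction the value of *1700020I14Rik* was 0.00 (0.0041), so its direction did not hold.

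On the X chromosome, *Ftx*, a non-coding gene of the X inactivation centre and a known activator of *Xist*, was the 1 member. It was at 93, 63 and 63 in KO and at 65, 89 and 95 in WT. Its neighbour *Jpx*, a lincRNA under the minimum of 20, was at 17, 17 and 13 in KO and at 19, 18 and 15 in WT. *Xist* itself was at 1 to 4 in all 6 hearts, of which all had high values of genes on the Y chromosome (summed level 1837 to 1998). *Ftx* was thus read in hearts that hardly expressed *Xist*.

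Hearts of a group differed more in members of low level. With a mean between 20 and 40, the median standard deviation (SD) within groups was 0.297 on the log2 scale over 59 members and 0.252 over 1410 protein coding genes, and between 40 and 80 it was 0.261 over 41 members and 0.182 over 1946 coding genes. Above 320 it was 0.121 over 6 members and 0.0761 over 2709 coding genes. In each of the 5 level classes the median of the members was above that of the coding genes, which is a description with no test. The largest SD was that of *AC160401.1* (0.977), followed by *Gm28187* (0.789), at 28, 54 and 19 in KO and 11, 18 and 37 in WT, and *Gm26760* (0.648), at 10, 28 and 28 in KO and 19, 15 and 28 in WT. The smallest was that of *1700020I14Rik* (0.0458).

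**Figure D4:**
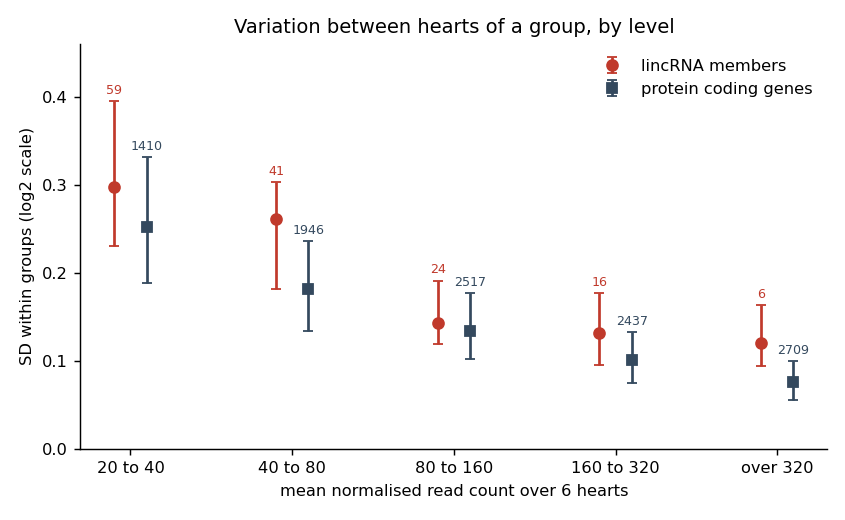
Median SD within groups on the log2 scale, with bars from the first to the third quartile, for members (circles) and protein coding genes (squares) by mean normalised read count, and the number of genes above each bar. The median falls with the level in both sets, and members lie above coding genes in all 5 classes, at 0.297 and 0.252 in the lowest.

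The members were grouped by where they lie relative to the nearest protein coding row of the table. The most frequent arrangement was divergent, in 43 members (29.5%), of which 18 began within 1 kb of the coding gene, as transcripts from a shared promoter region do. A further 30 lay downstream on the same strand, 10 of them within 5 kb, 26 upstream on the same strand, and 22 were convergent. The distance was over 100 kb for 26 members. Where RefSeq gave a promoter (250 bases before to 50 after the start), the median ratio of observed to expected CpG was 0.989 in 13 divergent members within 5 kb, 0.514 in 9 divergent members farther away, 0.422 in 48 members of other arrangements and 0.736 in 11462 protein coding genes. By median, the 13 close divergent members had promoters richer in CpG than the coding genes, and both other sets poorer ones, which is a description with no test.

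**Figure D5:**
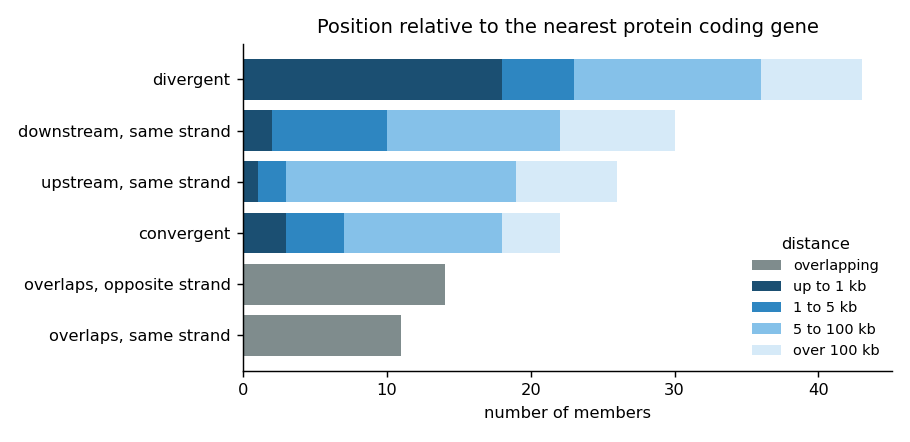
Number of members by position relative to the nearest protein coding gene of the table, with shades for the distance between them. Divergent members are the most frequent, 43, and hold most of the members within 1 kb of a gene they do not overlap, 18.

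The median log2 fold change was close to 0 in each arrangement, between -0.04 in the 14 members that overlap a gene on the opposite strand and 0.02 in the 26 upstream on the same strand. The 141 distinct neighbours included 126 that were tested, of which 11 had an unadjusted p under 0.05 (8.73%, against 5.74% of all genes), 5 higher and 6 lower in KO. In 2 cases both the member and its neighbour did. Of these members, *AC160401.1* reached the minimum mean of the choice only through KO (mean of 40 in KO and 16.7 in WT). The choice thus favours its difference, so nothing is read from the count of 2. *Gm12295* lies 7665 bases upstream of *Myocd*, on its strand, and *Myocd*, the gene of myocardin, an activator of muscle genes, was at 799, 655 and 648 in KO and at 880, 773 and 776 in WT, a log2 fold change of -0.21 ± 0.08 (SE; adjusted p = 0.807). The means of both were lower in KO, with KO replicate 1 among the WT hearts for *Myocd* and WT replicate 1 among the KO hearts for *Gm12295*. *AC160401.1* was higher in KO and its nearest coding gene in the table, *Hsf2*, a heat shock transcription factor 328775 bases away, was lower (185, 148 and 158 in KO and 201, 182 and 191 in WT; log2 fold change -0.23 ± 0.10, SE, adjusted p = 0.851). *Frmd8*, the neighbour of *Neat1*, was at 32, 37 and 37 in KO and at 40, 32 and 34 in WT, a log2 fold change of 0.00.

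For several members the nearest protein coding gene of the table encodes a transcription factor of heart development, at distances of up to 172028 bases. These members were picked for the function of the neighbour after the values had been seen. *5033428I22Rik*, which RefSeq names *Hdnr*, lies 7485 bases from *Hand2*, a regulator of ventricle formation. It was at 62, 64 and 60 in KO and at 70, 65 and 58 in WT, beside *Hand2* at 213, 199 and 187 in KO and at 202, 206 and 179 in WT. *1010001N08Rik* (*Gata6os*) overlaps *Gata6* on the opposite strand and was at 53, 53 and 50 in KO and at 55, 65 and 70 in WT, with no overlap and a log2 fold change of -0.27 ± 0.15 (SE; adjusted p = 0.877), while that of *Gata6* was 0.06. *Gm43050*, divergent from *Tbx5* at 2743 bases, was at 27, 35 and 37 in KO and at 29, 24 and 22 in WT, with a log2 fold change of 0.38 ± 0.22 (SE; adjusted p = 0.879) beside 0.04 for *Tbx5*. *Gm36670*, at 21, 16 and 23 in KO and 25, 20 and 15 in WT, lies 172028 bases upstream of *Irx3*, a regulator of ventricular conduction, which was at 302, 330 and 335 in KO and at 254, 246 and 277 in WT (log2 fold change 0.31 ± 0.08, SE, adjusted p = 0.518).

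Chromosome 10 carries *Trdn-as* and 8 of the members, which were set out by their distance from it. The closest, *AC153899.1*, lies 2.62 Mb away and had a log2 fold change of 0.00 (-0.0017) with a 95% interval of -0.20 to 0.20. *AC158630.2*, 14.3 Mb away, and *AC160401.1*, 23.9 Mb away on the other side, were the 2 with an unadjusted p under 0.05, in opposite directions (4.48% of the 670 genes tested on the chromosome). Both reached the minimum of 20 only through the group where they are high, so nothing is read from the count of 2. By distance, between these come *AC153977.4* at 17.5 Mb (27, 22 and 25 in KO and 16, 17 and 20 in WT, log2 fold change 0.46, no overlap) and *AC153945.1* at 23.7 Mb (0.08). *AC153977.4* likewise reached the minimum of 20 only through KO, with a mean of 24.7 against 17.7 in WT, so nothing is read from its difference. *AC153945.1* and *AC160401.1* lie on opposite strands, the first at a mean of 270 in KO and 259 in WT, the second at 40 and 16.7 and the most variable member. The 3 others, *Gm21781*, *2310039L15Rik* and *A430046D13Rik*, had log2 fold changes of -0.02, -0.30 and -0.13, with no overlap for *2310039L15Rik* (50, 44 and 49 in KO and 67, 59 and 51 in WT).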

How the data were processed

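Per the labels and the study's methods, the authors trimmed reads with Trimmomatic 0.39, aligned them to GRCm38 with STAR 2.6.1d, removed duplicates with Picard 2.21.1 and multi-mapping, ribosomal and mitochondrial reads, and counted exonic reads by strand with featureCounts 1.6.5, without reads of more than 1 gene. The score the authors deposited for a gene is its read count divided by the DESeq2 1.18.1 size factor and rounded. These are not raw counts, so two-sided tests were made with limma 3.58.1 in R 4.3.3 on log2(value + 1) of genes with a mean of at least 10 (eBayes with trend, p-values adjusted by Benjamini-Hochberg). The size factors (0.795 to 1.15) were estimated from gaps between the rounded values, and fold changes are on the log2(value + 1) scale. Intervals are 95%. Exons came from GENCODE M21, promoters, microRNAs and other names from RefSeq (GRCm38.p6). The fit was tested on simulated data, and no outcome of that test is reported or relied on here. The members, lists and tests were chosen with earlier results of these data known. Members are named if they belong to lists of known roles, are among the 10 highest means, had an unadjusted p under 0.05, lie at the limit of the choice or have the 3 largest SDs within groups. Further members were named after their values were seen, as hosts of microRNAs, members on chromosome 10, neighbours of genes of heart development or for their RefSeq type. For each of the 3 protein lists up to 4 genes of smallest p are named, with genes of known function beside them, and protein coding neighbours are those nearest to named members; some genes these rules pick are not reported here. Alternatives were another pseudocount (0.1), 2 other filters, 2 scalings, limma-voom, no trend, a block for the replicate number, a read density correction (loess over reads per exonic base) and each heart left out. Values are per heart, and p-values measure only the spread between these hearts.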

Additional observations from a re-analysis of the deposited data

How the results depend on the processing

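No member passed an adjusted p of 0.05 under any alternative run (limma). The 4 genes called over the whole table became 2 at a threshold of 0.01, 2 with at least 10 in every heart and 1 without the mean-variance trend, and 2 to 32 with a heart left out. With a heart left out, 7 to 23 of the 146 members had an unadjusted p under 0.05, while the share over all genes was 3.75% to 8.60%. Between 3 (without KO replicate 3) and 9 (without KO replicate 2) of the original 13 were among these members. The paraspeckle and speckle proteins gave 0 to 1, the snoRNP proteins 1 to 2 and the decay factors 0 to 1. The causes were not tested. Of the 13, 1 (*D830032E09Rik*) stayed under 0.05 in all 15 alternatives, and each of the other 12 lost it in 1 to 8. The median log2 fold change of the members lay between -0.04 and 0.05 over all alternatives and moved by less than its spread between hearts (0.0579). For the 44 named members, 659 alternative values were computed: in 547 the direction and the side of 0.05 (unadjusted) held, in 58 that side was lost, in 14 gained, in 40 a value that had not passed changed sign, and 0 that had passed did.

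The replicate number was tried as a block. Deviations of KO and WT hearts of the same number correlated at 0.05, -0.07 and -0.03, so the numbers do not pair the hearts. With the replicate block, 16 of the 146 members had an unadjusted p under 0.05, 5 higher and 11 lower, a larger share than the 5.82% of all genes. In that fit 4 genes passed the adjusted threshold over the table, and every count of the protein lists stayed as it was. Depth was 2.59 to 3.62 M reads a heart, counting error and the spread between hearts were not told apart, and the 7 members whose interval reached a 2-fold change had means of 20.3 to 28.7.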
